A study of Mus musculus with 12 samples.

Results

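Mitochondrial biogenesis in muscle is governed by a small group of nuclear genes, 10 of which were followed here in mice lacking *Cox6a2*, the striated muscle isoform of a subunit of cytochrome *c* oxidase: the coactivators *Ppargc1a* and *Ppargc1b*, the estrogen-related receptors *Esrra*, *Esrrb* and *Esrrg*, the nuclear respiratory factors *Nrf1* and *Gabpa*, the mitochondrial transcription factor *Tfam*, and the fatty acid receptors *Ppara* and *Ppard*. They were found by gene symbol, and each was represented by its brightest probe set that carries no other symbol; all 10 of 10 were measured, of 19938 genes in all. Total RNA from diaphragm and gastrocnemius muscle was hybridized to Gene 1.0 ST arrays for mouse, whose probes are spread over the length of a transcript. The 4 groups of 3 biological replicates were *Cox6a2*-/- (KO) diaphragm, KO gastrocnemius, wild type (WT) diaphragm and WT gastrocnemius, all from male C57Bl6 mice 10 to 12 weeks old. The deletion is global, and the controls were purchased C57BL/6J animals matched for age and sex, so that no littermate group is described. The deposited values are log2 signals, normalized between arrays by the authors with the RMA method, and p-values given here measure the spread between these biological replicates.

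The coactivators PGC-1α and PGC-1β, encoded by *Ppargc1a* and *Ppargc1b*, do not bind DNA themselves but are recruited by transcription factors, among them the estrogen-related receptors, NRF-1, the GABP complex and the PPARs, whose target genes encode respiratory chain subunits and enzymes of fatty acid oxidation. NRF-1 and GABP also drive *Tfam*, whose protein coats mitochondrial DNA and takes part in its transcription and replication. In skeletal muscle PGC-1α is known for its induction by exercise and for its abundance in oxidative fibers.

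The deleted gene, *Cox6a2*, gave log2 signals of 11.89 ± 0.16 (SD, n = 3) under the label WT diaphragm and, in WT gastrocnemius, of 11.74 ± 0.096 (SD, n = 3), against 6.89 ± 0.16 (SD, n = 3) in KO diaphragm and 6.93 ± 0.23 (SD, n = 3) in KO gastrocnemius. *Cox6a2* thus matched the genotype label on all 12 arrays, whereas the tissue label was not borne out on 3 of them. *Hoxc10*, a gene of hindlimb position, was at 8.68, 8.44 and 8.53 on average in the groups labelled WT diaphragm, WT gastrocnemius and KO gastrocnemius and at 4.18 in KO diaphragm. *Upk3b*, expressed by the mesothelial sheet around the diaphragm, was at 5.41, 5.49 and 5.16 in the same 3 groups and at 9.31 in KO diaphragm. On both genes the arrays labelled WT diaphragm sat with the hindlimb muscle, so that they are called by their label throughout, and every direction given below for diaphragm is drawn from them. Whether a difference there belongs to the knockout or to the muscle cannot be told apart. KO minus WT in gastrocnemius and KO diaphragm minus KO gastrocnemius do not use those arrays as a group.

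*Ppargc1a* showed one of the widest spans of the 10 genes, 2.01 log2 units between its lowest and highest group mean. Its log2 signals were 8.04, 8.01 and 7.94 in WT gastrocnemius and 8.29, 8.99 and 8.73 in KO gastrocnemius. They were 9.62, 8.66 and 8.40 on the arrays labelled WT diaphragm and 10.57, 9.98 and 9.46 in KO diaphragm. The WT gastrocnemius arrays were thus the lowest and nearly alike, every KO gastrocnemius array lay above them, and the highest array labelled WT diaphragm passed the lowest of KO diaphragm. In gastrocnemius the difference was 0.67 on the log2 scale, with a standard error (SE) of 0.29 and a 95% confidence interval of 0.05 to 1.30, and it was not called (limma, adjusted p = 0.27). A gene is called here at a Benjamini-Hochberg adjusted p under 0.05 over all 19938 genes in 1 limma model of the 12 arrays. Between KO diaphragm and the arrays labelled WT diaphragm *Ppargc1a* rose by 1.11 (SE 0.29, 2.16-fold, adjusted p = 0.0111), although the arrays overlapped. Another *Ppargc1a* probe set had means of 7.98 and 8.79 in these groups, a difference of 0.81 that did not pass (adjusted p = 0.0589), and without the array labelled WT diaphragm replicate 3 the main one was at 0.86 (adjusted p = 0.06). KO diaphragm exceeded KO gastrocnemius by 1.33 (SE 0.29, adjusted p = 0.00323), with no overlap of arrays, as for 44.8% of all genes in either direction.

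The 250 bases before the annotated start of *Ppargc1a* are shown because its signal moved most among the coactivators; they come from RefSeq (build GRCm38.p6, chr5:51567726-51567975, minus strand, written 5′ to 3′ in the direction of the gene), and no capitals appear since none of the motifs searched below was found.
Ppargc1a: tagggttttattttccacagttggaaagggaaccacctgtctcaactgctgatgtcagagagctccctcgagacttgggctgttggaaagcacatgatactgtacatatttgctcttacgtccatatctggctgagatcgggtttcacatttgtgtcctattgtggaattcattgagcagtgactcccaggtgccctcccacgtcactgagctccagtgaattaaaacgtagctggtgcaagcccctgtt

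*Ppargc1b*, the other coactivator, had nearly equal KO minus WT values under the 2 muscle labels, of which that in diaphragm was called. The WT gastrocnemius arrays read 7.27, 6.99 and 7.08 and those of KO gastrocnemius 7.68, 7.31 and 7.88. The arrays labelled WT diaphragm read 7.23, 6.97 and 7.41 and those of KO diaphragm 7.48, 7.61 and 8.01. Under both muscle labels every KO array was above every WT array, by a small margin at the nearest pair. Arrays lay wholly on one side for 23.2% of all genes in gastrocnemius and 43.1% in diaphragm. The difference was 0.51 in gastrocnemius (SE 0.16, 95% confidence interval 0.16 to 0.86, adjusted p = 0.153 by limma) and 0.50 in diaphragm (SE 0.16, adjusted p = 0.0343). The call in diaphragm was lost after quantile normalization, at 0.38 (adjusted p = 0.088), after median centring, at 0.42 (adjusted p = 0.0554), and without any of 4 arrays: KO diaphragm replicate 3 (0.34, adjusted p = 0.155) or 2 (0.54, adjusted p = 0.0541) and the label WT diaphragm replicate 1 (0.51, adjusted p = 0.0679) or 2 (0.38, adjusted p = 0.133). The interaction was -0.01 (95% confidence interval -0.50 to 0.49), and KO diaphragm and KO gastrocnemius differed by 0.08 (95% confidence interval -0.27 to 0.43).

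**Figure D1:**
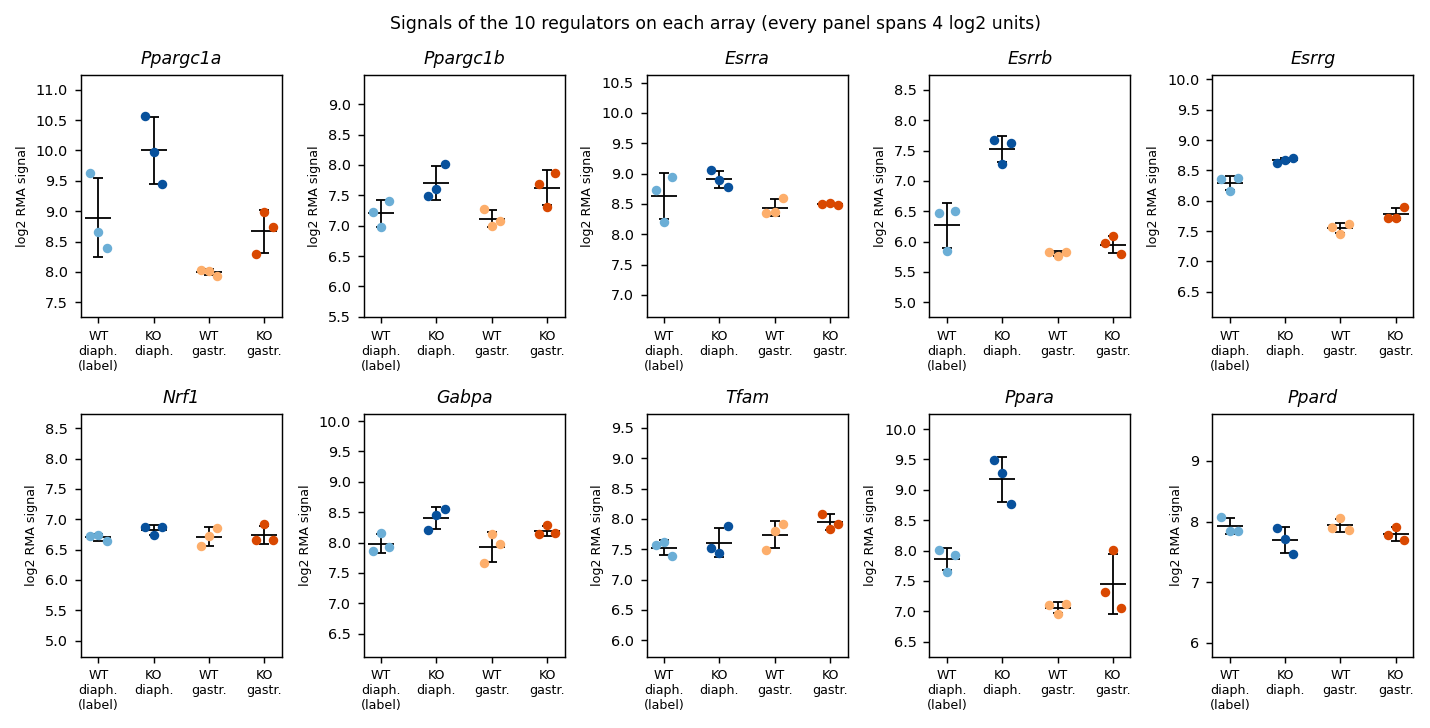
Log2 RMA signal (vertical axes, every panel spanning the same number of log2 units) of the 10 regulators on the 3 arrays of each group (horizontal axes, labelled group); each point is an array, with the group mean as a dash and its SD as a bar. *Ppargc1a*, *Esrrb* and *Ppara* are highest in KO diaphragm, while *Nrf1* group means lie within 0.12 of each other.

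Among the estrogen-related receptors, orphan nuclear receptors that PGC-1 coactivates, *Esrrb* changed most. Its signals were 7.68, 7.27 and 7.62 in KO diaphragm against 6.47, 5.84 and 6.50 on the arrays labelled WT diaphragm. In gastrocnemius they were 5.97, 6.09 and 5.80 in KO and 5.84, 5.76 and 5.83 in WT mice. All KO diaphragm arrays lay above the remaining 9, and the 2 gastrocnemius groups overlapped. Of all genes in either direction, 43.1% did not overlap between KO diaphragm and the label WT diaphragm, and 44.8% between the KO muscles. The share against all 9 arrays was not counted. *Esrrb* rose in KO diaphragm by 1.25 (SE 0.16, 2.39-fold, adjusted p = 4.34e-05) and was higher there than in KO gastrocnemius by 1.57 (SE 0.16, 2.97-fold, adjusted p = 5.53e-06). In gastrocnemius the genotypes differed by 0.14 (95% confidence interval -0.20 to 0.48, adjusted p = 0.683). The difference between the muscle labels in the KO minus WT value, limma's interaction term, was 1.11 (SE 0.22, adjusted p = 0.00372), and *Esrrb* was the 1 member called in that test, in which 14.8% of all genes were called in either direction.

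*Esrrg*, the receptor most tied to oxidative muscle fibers, separated all 4 groups. It read 8.63, 8.68 and 8.70 in KO diaphragm and 8.36, 8.16 and 8.37 on the arrays labelled WT diaphragm. In gastrocnemius it read 7.72, 7.72 and 7.89 in KO and 7.57, 7.46 and 7.62 in WT mice. The 4 groups did not overlap at all, in the order KO diaphragm, the label WT diaphragm, KO gastrocnemius, WT gastrocnemius. Of all genes, 43.1% did not overlap between KO diaphragm and the label WT diaphragm, and 44.8% between the KO muscles. *Esrrg* rose in KO diaphragm by 0.37 (SE 0.091, 1.29-fold, adjusted p = 0.00741), and KO diaphragm exceeded KO gastrocnemius by 0.89 (SE 0.091, adjusted p = 6.39e-06). The gastrocnemius groups, neighbours in that order, differed by 0.23 (95% confidence interval 0.03 to 0.42, adjusted p = 0.233), which was not called. *Esrrg* was also the 1 member called between the arrays labelled WT diaphragm and WT gastrocnemius, at 0.75 (SE 0.091, adjusted p = 0.00211), a comparison in which 0.461% of all genes were called. These arrays therefore differed from WT gastrocnemius in *Esrrg*, although in *Hoxc10* and *Upk3b* they lay far closer to it than to KO diaphragm. Their *Hoxc10* signals, 8.62 to 8.75, did not overlap those of WT gastrocnemius either, 8.36 to 8.55.

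*Esrra*, itself a target of PGC-1α, read 9.06, 8.89 and 8.78 in KO diaphragm, 8.73, 8.21 and 8.94 under the label WT diaphragm, 8.49, 8.51 and 8.48 in KO gastrocnemius and 8.35, 8.36 and 8.60 in WT gastrocnemius. It was not called in any comparison of these groups. KO minus WT was 0.28 under the diaphragm label (95% confidence interval -0.04 to 0.60, adjusted p = 0.182) and 0.06 in gastrocnemius (95% confidence interval -0.26 to 0.38, adjusted p = 0.873). The value in diaphragm rested on single arrays, being 0.071 (adjusted p = 0.686) without the label WT diaphragm replicate 2 and 0.44, with a call (adjusted p = 0.0478), without replicate 3. KO diaphragm was above KO gastrocnemius on every array, as 44.8% of all genes did not overlap there in either direction. The difference of 0.41 was just outside the threshold (limma, adjusted p = 0.0526). It passed when the arrays labelled WT diaphragm were left out of the fit (adjusted p = 0.00955).

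Of the nuclear respiratory factors, *Nrf1*, which encodes NRF-1, ranged from 6.56 to 6.91 over all 12 arrays, and its groups overlapped in every comparison. Its difference was 0.12 in diaphragm (95% confidence interval -0.10 to 0.34) and 0.03 in gastrocnemius (95% confidence interval -0.19 to 0.25). *Gabpa*, which encodes the DNA-binding subunit of GABP, read 8.21, 8.45 and 8.55 in KO diaphragm and 7.86, 8.16 and 7.92 on the arrays labelled WT diaphragm. It read 8.14, 8.29 and 8.16 in KO gastrocnemius and 7.66, 8.14 and 7.98 in WT gastrocnemius. Under both muscle labels every KO array was above every WT array, with the nearest arrays almost touching. The shares of all genes without overlap were 23.2% in gastrocnemius and 43.1% in diaphragm. *Gabpa* rose in KO diaphragm by 0.43 (SE 0.13, 1.34-fold, adjusted p = 0.024) and differed by 0.27 in gastrocnemius (SE 0.13, 95% confidence interval -0.01 to 0.55, adjusted p = 0.316). The call was lost without any of 4 arrays, KO diaphragm replicate 2 or 3 and the label WT diaphragm replicate 1 or 3 (0.35 to 0.40, adjusted p of 0.0737 to 0.096), and after median centring (0.35, adjusted p = 0.0579).

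*Tfam*, the downstream effector on mitochondrial DNA, was not called in any comparison. It read 7.51, 7.44 and 7.88 in KO diaphragm, 7.58, 7.62 and 7.38 under the label WT diaphragm, 8.09, 7.84 and 7.91 in KO gastrocnemius and 7.49, 7.81 and 7.92 in WT gastrocnemius. All of these groups overlapped between the genotypes, and the highest array of all was one of KO gastrocnemius. KO minus WT was 0.08 under the diaphragm label (95% confidence interval -0.20 to 0.37, adjusted p = 0.674) and 0.20 in gastrocnemius (95% confidence interval -0.08 to 0.49, adjusted p = 0.467). KO diaphragm lay below KO gastrocnemius by 0.33 on the log2 scale (difference -0.33, adjusted p = 0.0797), with no call. It passed the threshold after quantile normalization (-0.42, adjusted p = 0.0247) and without KO diaphragm replicate 3 (-0.47, adjusted p = 0.0189). Without KO diaphragm replicate 2 it was nearer to no difference, at -0.25 (limma, adjusted p = 0.266).

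*Ppara*, the fatty acid receptor that activates genes of fatty acid oxidation, had the widest span of the 10 members, 2.11 log2 units between group means. It read 9.49, 9.27 and 8.76 in KO diaphragm and 8.01, 7.65 and 7.92 on the arrays labelled WT diaphragm. It read 7.311, 8.001 and 7.048 in KO gastrocnemius and 7.10, 6.96 and 7.12 in WT gastrocnemius. The KO diaphragm arrays were all above the other 9, and KO gastrocnemius replicate 2 stood above the rest of its group. KO diaphragm did not overlap the label WT diaphragm for 43.1% of all genes in either direction, or KO gastrocnemius for 44.8%. *Ppara* rose in KO diaphragm by 1.31 (SE 0.21, 2.49-fold, adjusted p = 0.000352) and exceeded KO gastrocnemius by 1.72 (SE 0.21, 3.30-fold, adjusted p = 3.17e-05). In gastrocnemius it differed by 0.39 (SE 0.21, 95% confidence interval -0.06 to 0.85, adjusted p = 0.373), and this value was 0.12 without KO gastrocnemius replicate 2 and 0.60 without replicate 3. The interaction was 0.92 (SE 0.30, adjusted p = 0.0538), and it passed without KO gastrocnemius replicate 2 (1.20, adjusted p = 0.00561) or without KO diaphragm replicate 3 (1.13, adjusted p = 0.0159). Without KO gastrocnemius replicate 3 it was lower, at 0.72 (limma, adjusted p = 0.131).

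*Ppard*, the other fatty acid receptor of muscle, was the 1 member lower in KO than in WT mice under both muscle labels, without a call. Its signals lay between 7.47 and 7.89 in KO diaphragm, 7.85 and 8.08 under the label WT diaphragm, 7.69 and 7.91 in KO gastrocnemius and 7.86 and 8.06 in WT gastrocnemius. The difference was -0.23 in diaphragm (95% confidence interval -0.48 to 0.01, adjusted p = 0.15) and -0.14 in gastrocnemius (95% confidence interval -0.39 to 0.11, adjusted p = 0.563).

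Of the 10 regulators, 0 were called in gastrocnemius by limma, where 0.592% of all genes were called in either direction; 3 had an unadjusted p under 0.05, all higher in KO mice, where 8.11% of all genes were higher and 8.34% lower at that threshold. The methods' t-test, run on the same signals, gave 2 members without adjustment, beside 13.6% of all genes, and 0 after Benjamini-Hochberg adjustment. The KO arrays lay wholly above the WT arrays for 4 members, and wholly on one side for 23.2% of all genes. The median difference was 0.22 over the members and -0.01 over all genes. In diaphragm 6 rose and 0 fell, beside 16.3% of all genes higher and 11.2% lower. For 43.1% of all genes the KO diaphragm arrays lay wholly on one side of those labelled WT diaphragm. The median difference was 0.40 over the members against -0.04 over all genes. The balance of higher and lower calls depends on the scaling, since 59.3% of the called genes were higher with the signals as deposited, 41% after median centring and 49.6% after quantile normalization, where 4 and 5 members rose.

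Between KO diaphragm and KO gastrocnemius, 4 members were higher and 0 lower, beside 17.7% and 11.2% of all genes. Of all called genes there, 61.3% were higher as deposited, 35.6% after median centring and 49.7% after quantile normalization, and under both scalings the same 4 members were called higher and *Tfam* lower. The 4 were *Ppargc1a*, *Esrrb*, *Esrrg* and *Ppara*, also among the 6 called in diaphragm; both comparisons share the KO diaphragm arrays. Between the arrays labelled WT diaphragm and WT gastrocnemius, *Ppargc1a* was at 0.90 (adjusted p = 0.199), *Ppara* at 0.80 (adjusted p = 0.121) and *Esrrb* at 0.46 (adjusted p = 0.226), uncalled but with every array on the higher side, as for 16.8% of all genes in either direction. Fitted on these 6 arrays alone, *Ppara* joined *Esrrg* (adjusted p = 0.0224), and without the array labelled WT diaphragm replicate 2 *Esrrb* did (0.68, adjusted p = 0.0433).

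**Figure D2:**
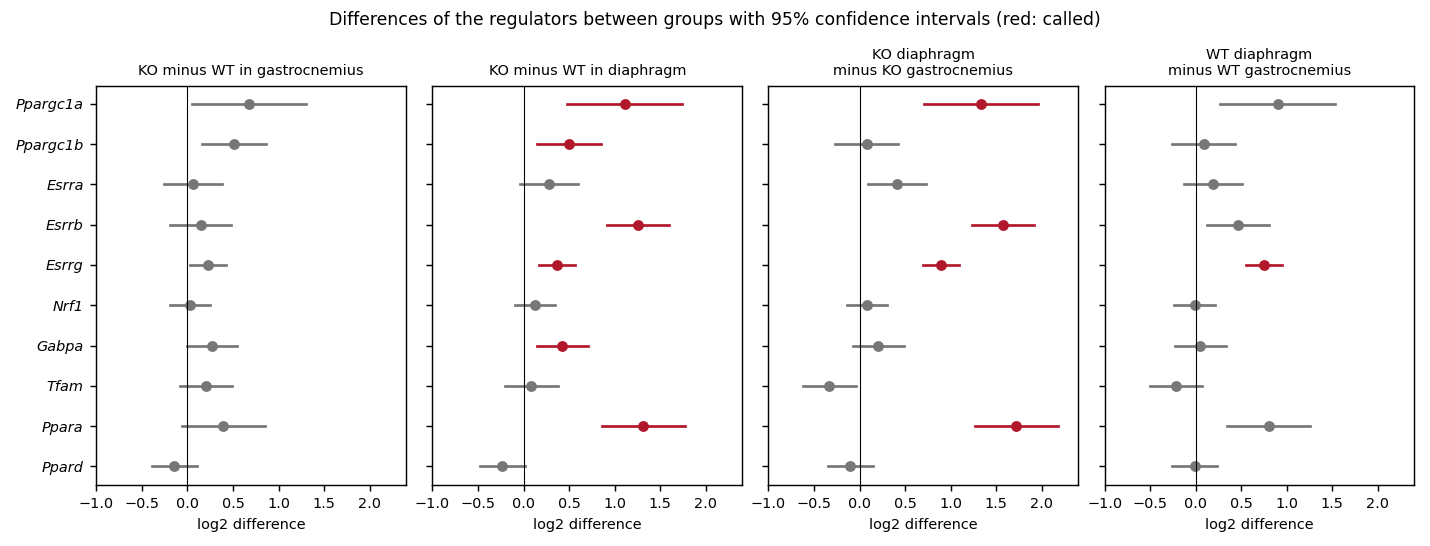
Log2 difference (horizontal axes) of each regulator (rows) in 4 comparisons by label; points are limma estimates, lines are 95% confidence intervals and red marks calls at an adjusted p under 0.05. In gastrocnemius 9 of 10 estimates are positive, beside 9269 of all 19938 genes, and none is red, and in diaphragm 6 are red.

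Other cell types moved with the KO diaphragm group. Of 8 mesothelial markers 8 rose between the arrays labelled WT diaphragm and KO diaphragm, their mean log2 signal lying between 7.54 and 8.36 on the KO diaphragm arrays and between 4.91 and 5.18 on the other 9. Of 10 macrophage markers 9 rose (means of 7.87 to 8.39 against 6.62 to 7.15), of 7 endothelial markers 6 rose (8.77 to 9.15 against 8.04 to 8.32), and of 6 white adipocyte markers 5 rose (7.15 to 8.82 against 6.42 to 6.69). Conversely 5 of 5 glycolytic fiber markers fell, from means of 12.97 to 13.02 down to 9.54 to 10.06. Of 10 general skeletal muscle markers, a list that shares *Myh4* with the glycolytic one, 6 fell (*Myh4*, *Ryr1*, *Mylpf*, *Cacna1s*, *Neb* and *Ckm*) and 2 rose (*Myh1* and *Myh2*), with means of 12.29 to 12.37 in KO diaphragm against 12.88 to 12.94 under the label WT diaphragm. Of 4 brown adipocyte markers 1 rose, *Cidea*, from 4.92 to 6.36, while *Ucp1*, the defining one, had means of 4.13 and 4.19 without a call; the list means were 4.85 to 4.95 in KO diaphragm against 4.37 to 4.84 on the other 9. Of 6 cardiomyocyte markers *Myh6* rose, from 6.25 to 6.78, and *Nppa* fell, from 5.41 to 5.08, with list means of 5.68 to 5.79 on all arrays. Of the position genes, 8 of 10 for hindlimb fell and 4 of 6 for cervical position rose. The part of these cell types in the rise of the 6 regulators was not tested, and in whole muscle fewer cells of a type and less RNA per cell cannot be told apart.

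In gastrocnemius, by contrast, no marker gene of these lists was called by limma. The macrophage markers were lower in KO mice for 10 of 10 genes (means of 6.67 to 6.89 against 6.96 to 7.30, 3 at an unadjusted p under 0.05), and 6 of 6 white adipocyte markers were negative (6.51 to 6.86 against 6.95 to 7.59, 1 at an unadjusted p under 0.05). Of all 19938 genes, 10669 were negative, and 8.34% were lower at that threshold. The part of these cell types in the uncalled differences of the regulators there was not tested.

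**Figure D3:**
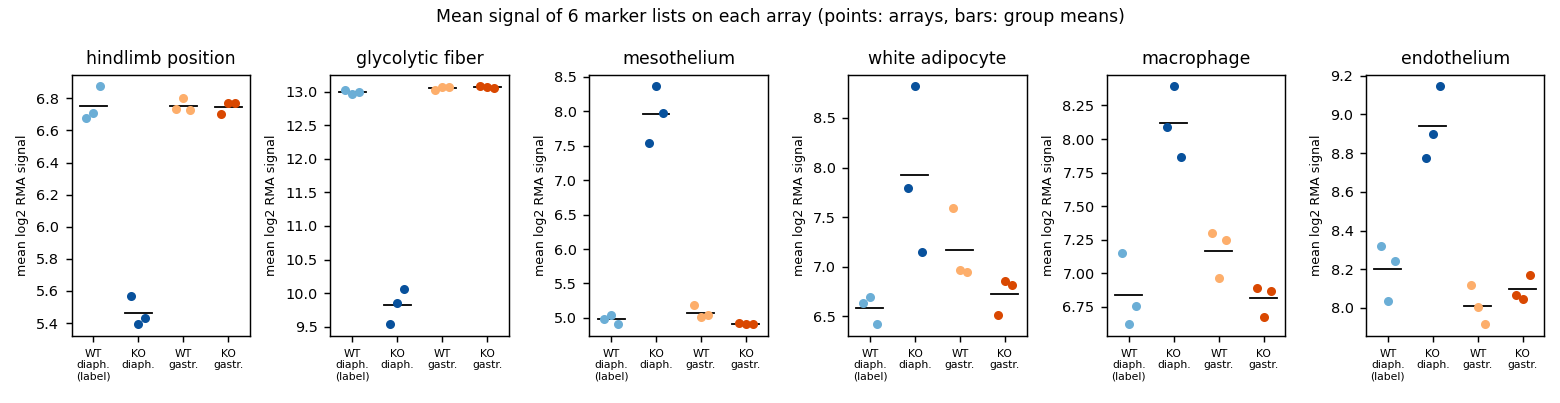
Mean log2 RMA signal (vertical axes, each with its own range) of 6 marker lists on the 3 arrays of each group (horizontal axes, labelled group); each point is an array and each bar a group mean. The 3 arrays of KO diaphragm lie away from the remaining 9 in the hindlimb, glycolytic fiber, mesothelium, macrophage and endothelium panels, and the arrays labelled WT diaphragm lie with gastrocnemius.

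The promoters were then read for the letters that the regulators themselves bind, since these genes act on each other. RefSeq windows from 250 bases before to 50 after the annotated start (GRCm38.p6) were at hand for 9 of the 10 members, 14 windows in all, and were searched on both strands for TCAAGGTCA (estrogen-related receptors), GCGCATGC (NRF-1), CCGGAAG (GABP), a direct repeat of AGGTCA with 1 base between (PPARs) and, added later, TGACGTCA (CREB). Of 32851 windows of that length over the genome, 0.423% held the first, 2.71% the second, 8.86% the third, 0.0396% the repeat and 1.79% the last. Sequences are shown for *Ppara* and *Gabpa*, the called members with a match, written 5′ to 3′ over the 250 bases before the start, with the matched letters in capitals.
Ppara: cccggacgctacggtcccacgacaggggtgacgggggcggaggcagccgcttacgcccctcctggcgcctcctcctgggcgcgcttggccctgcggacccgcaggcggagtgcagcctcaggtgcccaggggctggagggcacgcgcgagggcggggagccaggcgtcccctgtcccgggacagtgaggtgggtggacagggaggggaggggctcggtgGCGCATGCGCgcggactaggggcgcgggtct
Gabpa: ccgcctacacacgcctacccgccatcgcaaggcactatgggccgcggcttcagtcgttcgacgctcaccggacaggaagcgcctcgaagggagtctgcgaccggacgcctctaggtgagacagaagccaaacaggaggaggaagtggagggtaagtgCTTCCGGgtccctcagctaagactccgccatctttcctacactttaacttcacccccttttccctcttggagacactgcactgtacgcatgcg

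The *Ppara* stretch (chr15:85735526-85735775, plus strand) holds the NRF-1 letters on both strands, from -31 to -24 and from -29 to -22 relative to the start, 2 matches that overlap because the motif nearly reads the same on both strands. The *Gabpa* stretch (chr16:84834874-84835123, plus strand) holds the GABP letters on the opposite strand, from -93 to -87. Of the uncalled members, *Esrra* held the NRF-1 letters on the opposite strand (-34 to -27) and *Tfam* the GABP letters on its own strand (-47 to -41). The windows of *Ppargc1a*, *Esrrb*, *Esrrg*, *Nrf1* and *Ppard* held no match to any of these letters. A match is a description of the sequence and not a measured site.

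**Figure D4:**
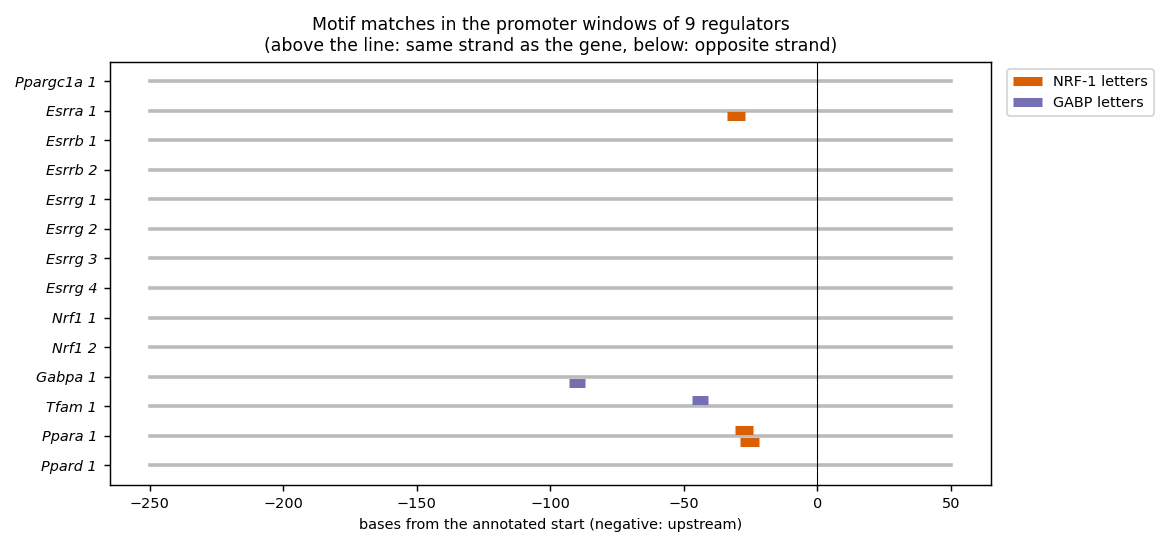
Matches to the searched letters (coloured bars) in the 14 promoter windows of 9 regulators (rows; the number separates windows of a gene), by distance in bases from the annotated start (horizontal axis). Matches appear in 4 windows, those of *Esrra*, *Gabpa*, *Tfam* and *Ppara*, all upstream of the start.

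Around the regulators, 67 further genes of 6 lists (partners, mitochondrial DNA machinery and targets, by textbook role) were measured; 8 listed genes had no probe set of their own. In diaphragm 27 rose and 9 fell, beside 16.3% of all genes higher and 11.2% lower, shares that also stand behind the count of each list below. In gastrocnemius 0 rose and 1 fell by limma, beside 0.592% of all genes in either direction. Without adjustment 9 were higher and 3 lower there, beside 8.11% and 8.34% of all genes, and the methods' t-test gave 16 without adjustment, beside 13.6% of all genes, and 0 after it. The calls in diaphragm came with the marker shifts given above.

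Of 10 partners and modifiers of the coactivators, 1 rose and 4 fell in diaphragm, with a median of -0.30. *Nrip1*, a corepressor that opposes oxidative gene expression in muscle, fell by 1.05 (SE 0.17, adjusted p = 0.000411), from a mean of 8.59 ± 0.23 (SD, n = 3) to 7.54 ± 0.14 (SD, n = 3). *Prkaa2* and *Mapk14*, kinases that act on PGC-1α, fell by 0.72 and 0.61, and *Mybbp1a*, a repressor that binds PGC-1α, by 0.38. *Fbxw7*, a ubiquitin ligase subunit that targets PGC-1α, rose by 0.50 (adjusted p = 0.000815). None was called in gastrocnemius by limma and none had an unadjusted p under 0.05 there, with *Nrip1* at -0.34 (adjusted p = 0.343).

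Of 12 partners of the transcription factors, 2 rose and 2 fell in diaphragm, with a median of 0.13. Of the 3 retinoid X receptors, obligate partners of the PPARs, *Rxrg* fell by 1.05 (SE 0.14, adjusted p = 5.39e-05) and *Rxra* by 0.81 (SE 0.080, adjusted p = 5.07e-06), while *Rxrb* was at -0.26 without a call (SE 0.10, adjusted p = 0.0768). *Pparg*, the PPAR of fat cells, rose by 0.88 (SE 0.15, adjusted p = 0.000616), together with the white adipocyte markers, and *Gabpb2*, a subunit that pairs with GABPα, rose by 0.52 (SE 0.11, adjusted p = 0.00286). In gastrocnemius *Rxrg* was at 0.56 on the other side of 0 (SE 0.14, adjusted p = 0.0834), with means of 8.71 ± 0.16 (SD, n = 3) in KO and 8.15 ± 0.069 (SD, n = 3) in WT mice. Its interaction was -1.60 (adjusted p = 8.06e-05), so the KO minus WT value differed between the muscle labels.

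Of 13 genes of mitochondrial DNA transcription and replication, the machinery in which TFAM works, 1 rose and 2 fell in diaphragm, with a median of 0.08. *Tfb1m*, a methyltransferase of mitochondrial ribosomal RNA, rose by 0.48 (SE 0.12, adjusted p = 0.00728), while *Top1mt*, the mitochondrial topoisomerase, fell by 0.53 and *Polrmt*, the mitochondrial RNA polymerase, by 0.29. In gastrocnemius 11 of 13 values were positive, beside 9269 of all 19938 genes, with a median of 0.18, and 0 were called by limma (3 had an unadjusted p under 0.05). *Tfb1m* was at 0.43 there (adjusted p = 0.108) and *Tefm*, the elongation factor, at 0.35 (adjusted p = 0.153).

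The PPAR targets gave the largest median of the 6 lists in diaphragm, 0.90 over 15 measured genes, of which 11 rose and 1 fell. *Acaa2*, a thiolase of beta-oxidation, rose by 1.38 (SE 0.14, adjusted p = 7.33e-06), *Lpl*, the lipase that frees fatty acids from lipoproteins, by 1.11 (SE 0.12, adjusted p = 1.24e-05) and *Fabp3*, the fatty acid carrier of muscle, by 1.09 (SE 0.18, adjusted p = 0.000428). *Ucp3*, the uncoupling protein of muscle, fell by 2.24 (SE 0.30, adjusted p = 7.89e-05), from 10.29 ± 0.18 (SD, n = 3) under the label WT diaphragm to 8.04 ± 0.68 (SD, n = 3). It was at 9.02 ± 0.41 (SD, n = 3) in WT and 9.37 ± 0.52 (SD, n = 3) in KO gastrocnemius, so that the KO diaphragm group was the lowest and the label WT diaphragm the highest. In gastrocnemius the median was -0.05, and *Acot2*, a mitochondrial thioesterase, fell by 0.91 (SE 0.19, adjusted p = 0.0485); its near-identical neighbour *Acot1*, whose probes may read the same transcripts, was at -0.57 (adjusted p = 0.119). The *Acot2* call was lost when any of 9 single arrays was left out, that is, any but the label WT diaphragm replicate 2, KO diaphragm replicate 3 and KO gastrocnemius replicate 2.

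Of 15 targets of the estrogen-related receptors, NRF-1 and GABP, 10 rose and 0 fell in diaphragm, with a median of 0.48. This list shares *Acadm* and *Fabp3* with the PPAR targets and *Tfb1m* and *Tfb2m* with the mitochondrial DNA genes, so the counts of the lists are not independent. *Vegfa*, the growth factor of capillaries, rose by 1.10 (SE 0.14, adjusted p = 5.48e-05), alongside the endothelial markers, *Ckmt2*, the mitochondrial creatine kinase of muscle, by 0.95 (SE 0.13, adjusted p = 6.3e-05) and *Acadm*, the medium-chain acyl-CoA dehydrogenase, by 0.93 (SE 0.090, adjusted p = 4.45e-06). In gastrocnemius 14 of 15 were positive, beside 9269 of all 19938 genes, with a median of 0.13, and 0 were called by limma (3 had an unadjusted p under 0.05). *Vegfa* was at 0.34 there (adjusted p = 0.262). Of 11 muscle genes that respond to PGC-1α, 7 rose and 1 fell in diaphragm, with a median of 0.62. That list shares *Vegfa*, *Ucp3*, *Mfn2* and *Cycs* with the others and counts *Esrra*. *Myh7* and *Tnni1*, slow fiber forms of myosin and troponin I, rose by 1.42 and 0.94.

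**Figure D5:**
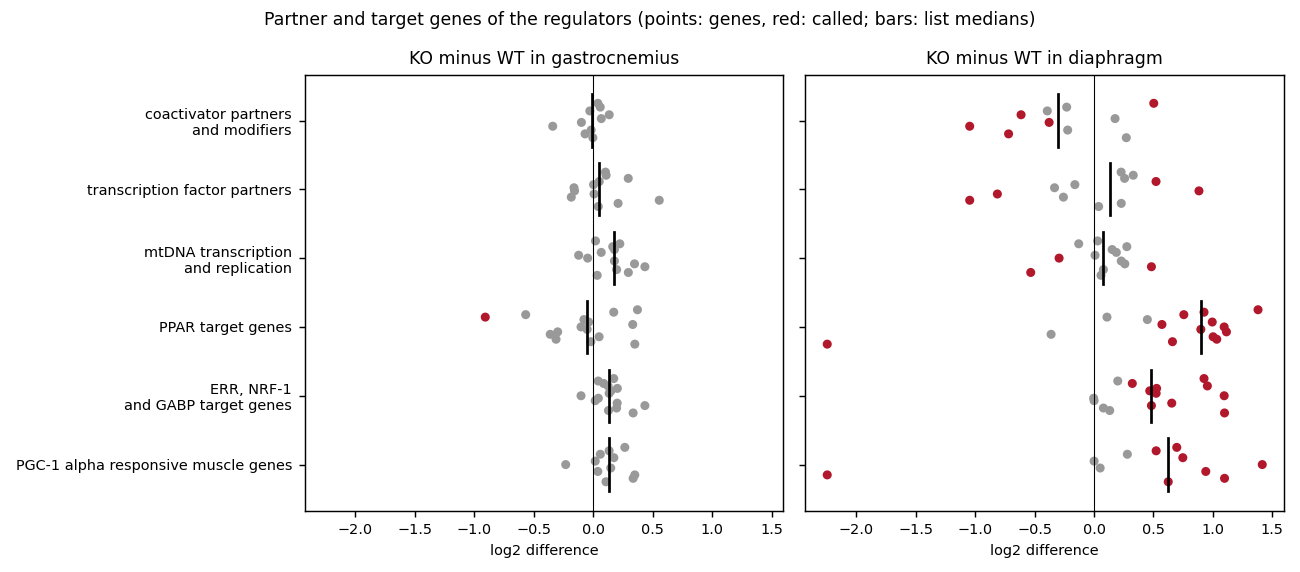
Log2 difference between KO and WT by label (horizontal axes) of the measured genes of 6 lists (rows) in gastrocnemius and diaphragm; points are genes, red points were called at an adjusted p under 0.05 and bars are list medians. The medians lie between -0.05 and 0.18 in gastrocnemius and between -0.30 and 0.90 in diaphragm.

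The same lists could be read without the arrays labelled WT diaphragm as a group by setting KO diaphragm beside KO gastrocnemius, a comparison that holds the difference between muscles. There 27 of the 67 genes were higher and 8 lower, beside 17.7% and 11.2% of all genes. Of the PPAR targets 12 were higher and 1 lower, with a median of 0.96 (all genes 0.02), *Lpl* at 1.55 (adjusted p = 5.24e-07), *Plin5*, a lipid droplet protein, at 1.89 (adjusted p = 9.41e-06) and *Ucp3* at -1.33 (adjusted p = 0.00427). *Rxrg* was at -1.37 (adjusted p = 4.7e-06). Between the arrays labelled WT diaphragm and WT gastrocnemius, 0 of the 67 were called by limma (without adjustment 8 were higher and 1 lower, beside 8.48% and 4.45% of all genes; the methods' t-test gave 5, beside 9.68%, and 0 after adjustment), with *Ucp3* at 1.26 (adjusted p = 0.0927).

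The genes whose pattern over the 12 arrays was most like that of the 3 widest-ranging members were found by the mean absolute difference of centred log2 signals, as a description. For *Ppara*, whose own mean absolute deviation was 0.69, the closest were *Pfkfb2*, an enzyme that regulates glycolysis (0.16), *Tm6sf1* (0.20) and *Pank1*, a pantothenate kinase (0.23). For *Esrrb*, with a deviation of 0.60, they were *Tm6sf1* (0.09), *Pank1* (0.10) and *P2ry1*, a receptor for ADP (0.12). For *Ppargc1a*, with a deviation of 0.69, they were *Pfkfb2* (0.22), *Ppara* itself (0.24) and the chaperone gene *Hsp90aa1* (0.25). *Pfkfb2* had a mean of 9.47 ± 0.56 (SD, n = 3) in KO diaphragm, 7.94 ± 0.15 (SD, n = 3) under the label WT diaphragm, 7.69 ± 0.13 (SD, n = 3) in KO gastrocnemius and 7.21 ± 0.029 (SD, n = 3) in WT gastrocnemius, the same order of groups as *Ppargc1a* and *Ppara*.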

How the data were processed

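Total RNA (100 ng per array) from 12 muscles was measured on mouse Gene 1.0 ST arrays. The authors processed the scanner files with RMA sketch in Affymetrix Expression Console (version not stated), which corrects for background, normalizes the arrays to each other and summarises the probes of a transcript; the deposited values are log2 signals. Arrays have no read depth; their number limits the precision. The annotation gives 1 gene symbol for 21789 of the 35556 probe sets, several for 1621 and none for 12146; only the first were used, and for 999 of the 19938 genes the brightest of several was taken. Groups came from the labels. R 4.3.3 and limma 3.58.1 (lmFit, contrasts.fit, eBayes) fitted a mean per group on all genes, without a block (residual degrees of freedom 8, prior 6.18); genes with a two-sided Benjamini-Hochberg adjusted p under 0.05 were called. The model was tested on simulated data. Alternatives were each pair of groups alone, a replicate block, median centring, quantile normalization, eBayes with trend and robust, a filter on genes below the median signal, averaged probe sets, each array left out, the arrays labelled WT diaphragm left out and the methods' t-test (Student's, unpaired, from the study's general statistics). After the data were seen, the other *Ppargc1a* probe set, both diaphragm arrays numbered 1 left out, the same alternatives for the lists, and the CREB motif were added. All members are named. Of each list, up to 4 called genes per comparison with the largest difference are eligible, or the 2 with the smallest p where none is called; *Acot1*, *Mybbp1a*, *Hoxc10*, *Upk3b*, *Rxrb*, the marker genes and values of a named gene in a further comparison were added after their values were seen. Members and lists were chosen with earlier results of these data known. Promoter sequences are RefSeq's (GRCm38.p6); *Ppargc1b* has none here.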

Additional observations from a re-analysis of the deposited data

Results flagged for a closer look

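By limma's interaction term, the KO minus WT value differed between the muscle labels for 1 of the 10 regulators. Of the 67 list genes, 19 were called higher and 6 lower in it, beside 8.76% and 6.07% of all genes. The 17 list genes given below are those that the naming rule above selected. *Esrrb* had an interaction of 1.11 (adjusted p = 0.00372), that is, its KO minus WT value was higher in diaphragm than in gastrocnemius. Larger in diaphragm as well were *Myh7* (1.65), *Lpl* (1.41), *Plin5* (1.34), *Acot1* (1.32), *Fabp3* (1.20), *Pparg* (1.04), *Ckmt2* (0.83), *Vegfa* (0.76), *Acadm* (0.75), *Mb* (0.57) and *Fbxw7* (0.46). Smaller in diaphragm were *Ucp3* (-2.59), *Rxrg* (-1.60), *Top1mt* (-0.83), *Rxra* (-0.82), *Mapk14* (-0.75) and *Prkaa2* (-0.65). All of these contrasts use the arrays labelled WT diaphragm, which resembled hindlimb muscle in *Hoxc10* and *Upk3b*, so that a knockout effect and a difference between muscles cannot be told apart in them. Between KO diaphragm and KO gastrocnemius, where those arrays are not used, *Esrrb* differed by 1.57, *Rxrg* by -1.37 and *Ucp3* by -1.33.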

How the results depend on the processing

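Of 1070 values of the members recomputed under the alternatives, 994 kept their direction and their side of the threshold, 23 lost and 20 gained a call and 33 changed sign. Many of these values could not change sign, since another test, or an array left out of other groups, leaves the difference as it was. The counts therefore do not measure how stable the calls are. Under the diaphragm label, *Ppargc1b* lost its call in 8 settings, *Gabpa* in 6, *Ppargc1a* in 4, and *Esrrb*, *Esrrg* and *Ppara* in 1 each. In gastrocnemius (0 called) the methods' t-test gave 2 at its threshold of 0.05 without adjustment. In diaphragm (6 called) it gave 0 after Benjamini-Hochberg adjustment, beside 9.98% of all genes, and 4 before it, beside 32.3%. The 2 coactivators, *Ppargc1a* and *Ppargc1b*, were not among those 4. Limma gave 4 to 6 as single arrays were left out. Between the arrays labelled WT diaphragm and WT gastrocnemius (1 called) the pair fitted alone gave 2, the methods' t-test 2 without and 0 after adjustment, and leaving out single arrays 1 to 2. In the interaction (1 called) genes at or above the median signal gave 2 and leaving out single arrays 1 to 2. Without both diaphragm arrays numbered 1, 6 members were called in diaphragm. The fit with a replicate block called 0, 6, 4, 1 and 1 members in the 5 comparisons, as without it. Deviations of arrays with the same number correlated at -0.07 to 0.148. Arrays of different numbers were not compared, so this cannot tell whether a number marks a shared mouse. The labels do not say so, and no paired reading is made.

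For the 67 list genes, the 1 call in gastrocnemius became 0 for the pair fitted alone, the replicate block, median centring, eBayes with trend and robust, leaving out all arrays labelled WT diaphragm and the adjusted methods' t-test (16 unadjusted), and 0 to 1 without single arrays. The 36 calls in diaphragm became 18 under the adjusted methods' t-test, which called 9.98% of all genes there. Between the WT labels, 0 became 1 for the pair alone, 5 under the unadjusted methods' t-test and 0 to 1 without single arrays.

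Of the 50 values of the members, 0 of those called changed sign, although under many alternatives the sign could not change. Median centring, which moved the median of all genes from 0.02 to -0.11 between the KO muscles and from -0.002 to -0.13 in the interaction, turned *Ppargc1b* (-0.050) and *Nrf1* (-0.044) in the former and *Nrf1* (-0.035) in the latter. Quantile normalization turned *Esrra* in gastrocnemius (-0.0012), *Nrf1* (-0.0034) and *Tfam* (-0.022) in diaphragm, *Ppargc1b* (-0.0092) and *Nrf1* (-0.041) between the KO muscles and *Nrf1* in the interaction (-0.024). Without single arrays, values crossed 0 in gastrocnemius for *Nrf1* (-0.060 to 0.099), in diaphragm for *Tfam* (-0.049 to 0.17), between the KO muscles for *Ppargc1b* (-0.079 to 0.20) and *Ppard* (-0.20 to 0.0090), between the WT labels for *Ppargc1b* (-0.017 to 0.20), *Gabpa* (-0.082 to 0.16), *Nrf1* (-0.091 to 0.060) and *Ppard* (-0.087 to 0.050), and in the interaction for *Ppargc1b* (-0.17 to 0.12), *Tfam* (-0.25 to 0.0042) and *Ppard* (-0.19 to 0.019). In gastrocnemius, 81 genes higher and 37 lower over all genes became 188 and 29 after median centring. The cause of these changes was not tested. With 3 arrays a group and a median residual SD of 0.138, small differences could not be resolved.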
